A study of Mus musculus with 2 samples.

Results

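The Hox genes of the mouse embryo were examined in 2 arrays, 1 from embryos carrying a maternal uniparental disomy of chromosome 18 (matUPD18) and 1 from embryos carrying the paternal disomy (patUPD18). In such embryos both copies of chromosome 18 come from the same parent. No Hox gene lies on chromosome 18: the Hoxa, Hoxb, Hoxc and Hoxd clusters lie on chromosomes 6, 11, 15 and 2. RNA came from whole embryos at 8.5 days post coitum (dpc), was amplified before labelling, and is given as 1 MAS5 signal intensity per probe set, in arbitrary units. The labels name neither the strain beyond the disomy nor the number of embryos behind each RNA, and there is no array of embryos with 1 copy from each parent. Members were all probe sets whose platform annotation gives a single gene symbol made of Hoxa, Hoxb, Hoxc or Hoxd and a paralogue number from 1 to 13. They numbered 48 of 45101 probe sets and stood for 33 of the 18193 genes named on the array, out of 39 Hox genes listed in RefSeq. The other Hox genes are not analysed here, and 3 probe sets annotated to more than 1 Hox gene were not members.

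Hox genes encode homeodomain transcription factors that give cells their position along the head-to-tail axis. Within a cluster they lie in order of paralogue number, and genes with low numbers are switched on earlier and further forward than genes with high numbers. Hox proteins bind DNA together with cofactors of the TALE class (Pbx, Meis and Pknox), and their expression is set by retinoic acid, by Cdx factors and by signals of the tail bud, the growing posterior end of the embryo. In a whole embryo at this stage the most posterior genes are at or before their onset.

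Promoter sequences are shown because the Hox genes are read here as a family with shared upstream inputs. The set of promoters used (build GRCm38.p6) held 10 of the 19 Hox genes measured on the arrays. The 250 bases before each start were searched on both strands for TTTATG (the core site of Cdx factors), TGATNNAT (a joint Hox and Pbx site), AGGTCA (a motif bound by nuclear receptors, those for retinoic acid included) and TATAAA (the TATA box). The search found AGGTCA in 4 of the 10 (Hoxb4, Hoxc4, Hoxd3 and Hoxd8), TGATNNAT in 2 (Hoxa2 and Hoxb1), TTTATG in 1 (Hoxd3) and TATAAA in none. Among 32851 mouse promoters of this length, 14% held AGGTCA, 7.68% TGATNNAT, 10.8% TTTATG and 12.4% TATAAA. A match is a description of the letters and not evidence of binding. The matches, each with up to 11 bases on either side, read along the strand of the gene with the matched letters in capitals:
Hoxb1, chr11:96365585-96365614, plus strand: tgattggggggTGATGGATgggcgctggga
Hoxa2, chr6:52164924-52164953, minus strand: gacttttttggATCAATCAaacagacagtg
Hoxd3, chr2:74711817-74711844, plus strand: taatagaccttTTTATGacctatttgcg
Hoxd3, chr2:74711821-74711848, plus strand: agacctttttaTGACCTatttgcggtcg
Hoxb4, chr11:96318175-96318202, plus strand: cagcgcccctaTGACCTagtgggtaccc
Hoxc4, chr15:103034238-103034265, plus strand: gcgctgccctgTGACCTacacagactgc
Hoxd8, chr2:74704469-74704496, plus strand: tcgctttgataAGGTCAggattcggagg
The sites of Hoxa2, Hoxb4 and Hoxc4 and the second of Hoxd3 match on the opposite strand, so the capitals there are the reverse complement of the motif. The TTTATG and AGGTCA matches of Hoxd3 share bases. The whole 250 bases are shown for Hoxd8 and Hoxa11, the genes with the largest ratio in each direction among the 10 with a promoter entry, again with a matched motif in capitals:
Hoxd8, chr2:74704365-74704614, plus strand: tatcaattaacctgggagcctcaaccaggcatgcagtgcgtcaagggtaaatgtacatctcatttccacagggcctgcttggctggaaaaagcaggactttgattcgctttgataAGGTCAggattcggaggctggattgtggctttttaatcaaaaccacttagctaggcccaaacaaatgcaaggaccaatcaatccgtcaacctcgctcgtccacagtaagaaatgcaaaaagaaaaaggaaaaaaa
Hoxa11, chr6:52245811-52246060, minus strand: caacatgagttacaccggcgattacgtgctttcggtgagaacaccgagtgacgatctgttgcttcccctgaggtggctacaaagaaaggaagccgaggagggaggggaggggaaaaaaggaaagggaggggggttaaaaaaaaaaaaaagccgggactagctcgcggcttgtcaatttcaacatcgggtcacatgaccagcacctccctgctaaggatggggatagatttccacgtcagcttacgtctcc
Hoxd8 carried its AGGTCA 135 bases before the start, and the Hoxa11 stretch held none of the 4 motifs.

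The matUPD18 and patUPD18 arrays had been scaled to the same trimmed mean (500.003 and 500.004). With 1 array per genotype no test of any difference was possible and no error could be given, so every difference below compares these RNAs and not the genotypes. A probe set was called measurable where at least 1 array reached its own 60th percentile of signal (190.1 for matUPD18 and 184.9 for patUPD18). Before a ratio was taken, signals under an array's 40th percentile (84.2 and 82.5) were raised to it, and a fold that rests on such a floor is written as "at least". Where a gene had several probe sets, it was read by the brightest, judged by the mean over both arrays. The label check, Impact, a gene of chromosome 18 known to be read from the paternal copy, had signals of 328.4 in matUPD18 and 2466 in patUPD18 by that probe set. Of its 2 other probe sets, the measurable one read 268.2 and 205.3. The 18 hybridisation control probe sets of bacterial and phage origin were all lower on the matUPD18 array, with a median log2 ratio of -0.56. Scaling the arrays to those controls would therefore add 0.56 to every log2 ratio in this text, and the median of all genes would then be 0.52.

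Of the 48 member probe sets 26 were measurable, and they covered 19 genes, namely 5 of 9 in Hoxa, 6 of 9 in Hoxb, 6 of 7 in Hoxc and 2 of 8 in Hoxd. Hox signals were mostly lower on the matUPD18 array. By the brightest probe set, 15 of the 19 genes read higher in patUPD18 under the deposited scaling, against 53.9% of all 10484 measurable genes. After scaling to the hybridisation controls, 6 of 19 (Hoxa5, Hoxa9, Hoxb5, Hoxc8, Hoxc10 and Hoxd8) did so, against 9.49% of all measurable genes. Hoxc8, Hoxc10 and Hoxd8, 3 of the 19, had a 2-fold or larger gap with patUPD18 higher, as 1.78% of all measurable genes had. No Hox gene had such a gap with matUPD18 higher, as 2.7% of all measurable genes had. At 1.5-fold, 6 Hox genes were higher in patUPD18 (8.74% of all measurable genes) and 2 in matUPD18 (9.97%). The median log2 ratio (matUPD18 over patUPD18) of the 19 was -0.37 and that of all measurable genes -0.04, a gap of -0.33 that scaling to the controls leaves as it is while turning the Hox median to 0.19.

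The filter on dim signals bears on these counts. Passing it through a single array selects for a higher signal on that array, though the gap can be small, as for Hoxc9 (1.09-fold). Hoxa11 passed through matUPD18 and Hoxc9 and Hoxc10 through patUPD18. Of the 16 genes over the limit on both arrays, 13 read higher in patUPD18, as did 53.5% of the 9386 such genes on the arrays, and the Hox median was -0.42. By 2-fold or more, Hoxc8 and Hoxd8 (2 of the 16) were higher in patUPD18, as were 0.703% of the 9386. With all 33 genes kept, the dim ones included, the Hox median was -0.08, and with the 11 genes over the 75th percentile it was -0.48.

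**Figure D1:**
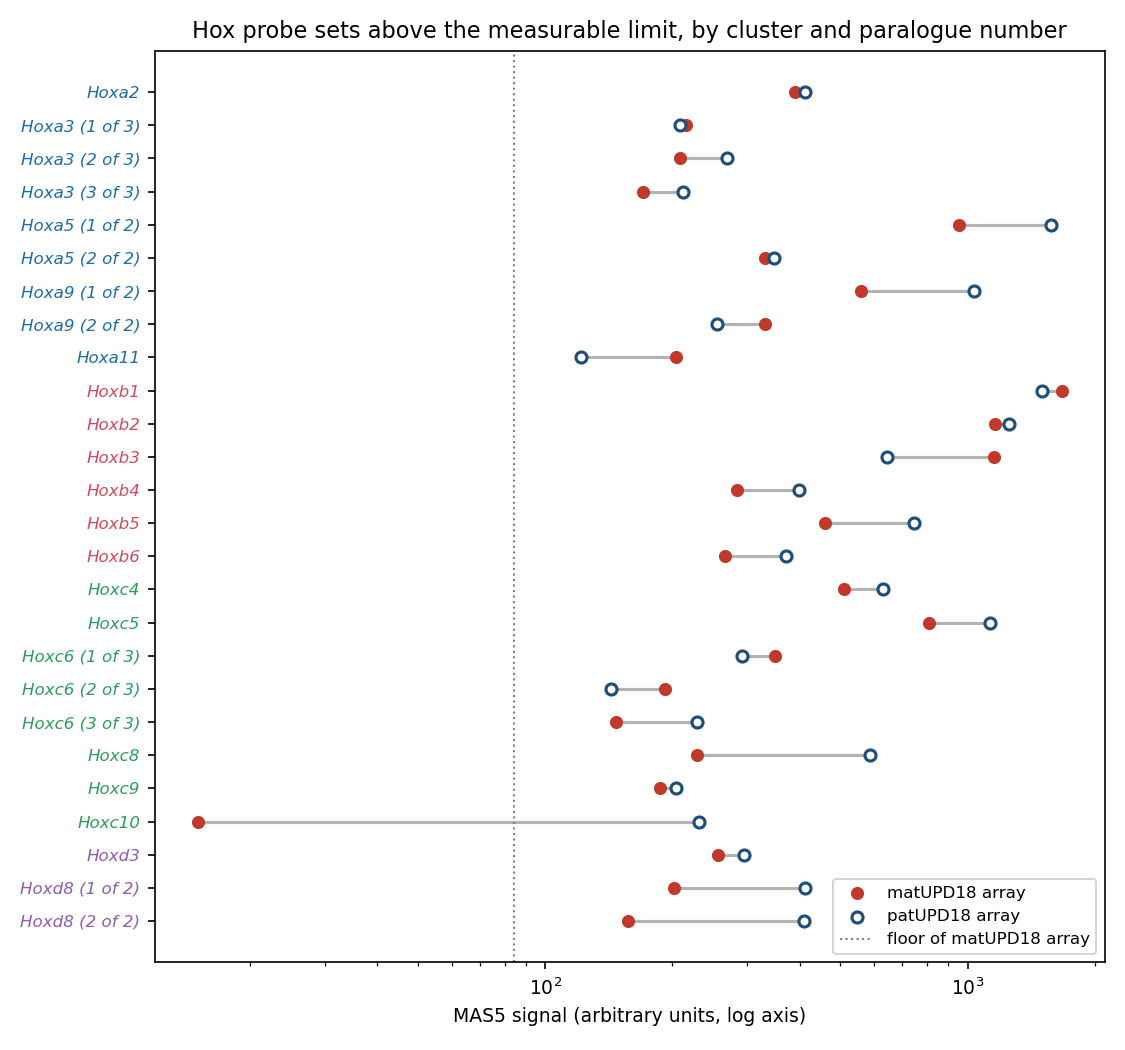
Signals of the 26 measurable Hox probe sets (log axis, arbitrary units) on the matUPD18 array (filled) and the patUPD18 array (open), ordered by cluster and paralogue number, with several probe sets of a gene ordered by their matUPD18 signal. Hoxc8, Hoxc10 and both Hoxd8 probe sets show wide gaps with patUPD18 higher, while Hoxb3 and Hoxa11 lie the other way; the dotted line is the floor of the matUPD18 array at 84.2.

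Of the genes of paralogue numbers 1 to 4, which pattern the hindbrain and neck, 8 of 10 were measurable. Their median log2 ratio was -0.16, against -0.04 for all measurable genes, and the 8 ran from -0.49 (Hoxb4) to 0.85 (Hoxb3). Of the 8, 6 were higher in patUPD18, against 53.9% of all measurable genes. Hoxb1, needed for the identity of the fourth rhombomere of the hindbrain, had signals of 1670 in matUPD18 and 1503 in patUPD18. Hoxb2, a hindbrain gene acting after it, read 1162 and 1255, and Hoxa2, which gives the second pharyngeal arch its identity, read 389.9 and 412.3. These 3 genes therefore differed by at most 1.11-fold between the arrays.

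Group 3 held the largest ratio toward matUPD18. Hoxb3 read 1156 in matUPD18 and 643.1 in patUPD18, 1.80-fold higher in matUPD18, while its other probe set lay under the floor of both arrays. Hoxa3, which is needed for thymus and parathyroid formation, read 208.8 and 269.8 by its brightest probe set and 170.7 and 211.3 by another. The remaining measurable Hoxa3 probe set read 215.0 and 208.4, so the probe sets of this gene did not share a direction. Hoxd3 read 257.0 in matUPD18 and 296.1 in patUPD18, a 1.15-fold difference. In group 4, Hoxb4 read 283.95 and 399.5, 1.41-fold higher in patUPD18, and Hoxc4 508.6 and 629.8, 1.24-fold higher in patUPD18. The second Hoxb4 probe set, below the measurable limit, went the other way with 109.9 and 47.4.

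Genes of numbers 5 to 8, which pattern the lower neck and trunk, had the lowest median of the 3 classes, at -0.70 over 7 measurable genes. Of the 7, 6 were higher in patUPD18, against 53.9% of all measurable genes. With only genes over the limit on both arrays kept, numbers 9 to 13 were lower, at -0.89, but that was Hoxa9 alone. All 3 measurable genes of group 5 were lower in matUPD18 under the deposited scaling, and Hoxc5 turned to 0.086 after scaling to the controls. Hoxa5, which acts in the neck vertebrae and lung, read 952.1 and 1573 by its brightest probe set, 1.65-fold higher in patUPD18. Its second measurable probe set read 331.1 and 347.4, which is a difference of only 1.05-fold. Hoxb5 read 458.3 and 746.9, 1.63-fold higher in patUPD18, and Hoxc5 809.9 and 1129, 1.39-fold higher in patUPD18. The 2 other Hoxc5 probe sets were below the measurable limit.

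Group 6 was divided. Hoxb6 read 266.7 in matUPD18 and 370.9 in patUPD18, 1.39-fold higher in patUPD18. Hoxc6, a marker of the thoracic level, read 349.0 and 291.9 by its brightest probe set and 192.5 and 142.7 by another, both higher in matUPD18. The third read 146.7 and 229.1, 1.56-fold higher in patUPD18, so no direction can be given for Hoxc6.

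Group 8 held the widest gaps between the arrays among genes with both signals above the floor. Hoxc8, which patterns thoracic vertebrae and the motor neurons of that level, read 228.7 in matUPD18 and 586.7 in patUPD18, 2.57-fold higher in patUPD18. It had 1 probe set. Hoxd8 read 201.5 and 411.6 by its brightest probe set, 2.04-fold higher in patUPD18, and 157.1 and 410.5 by its other, 2.61-fold higher. Hoxd8 was thus the Hox gene past 2-fold that more than 1 probe set measured, and both had the same direction. When the measurable genes were divided by mean signal into 5 equal groups, Hoxc8 and Hoxd8 fell in the second dimmest, where 1.38% of genes favoured patUPD18 by 2-fold or more.

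Genes of numbers 9 to 13, which pattern the lumbar, sacral and tail levels and the limbs, were mostly not measurable: 4 of 14 genes passed. Their median was -0.51, with 3 of the 4 higher in patUPD18 (53.9% of all measurable genes), and it rested on genes that disagreed. Hoxa9 read 560.2 in matUPD18 and 1035 in patUPD18 by its brightest probe set, 1.85-fold higher in patUPD18, but 331.3 and 254.7 by the other, 1.30-fold higher in matUPD18. Hoxc9 read 186.5 and 203.7, a 1.09-fold difference near the limit of measurement. Hoxc10, a gene of the lumbar level, read 15.03 and 231.7, at least 2.75-fold higher in patUPD18, with the matUPD18 signal under the floor. Hoxc10 lies in the dimmest of the 5 signal groups, where 5.34% of genes favoured patUPD18 by that much, and its log2 ratio of -1.46 became -0.29 with the floor at the 60th percentile. Hoxa11, which acts in the forearm and the uterus, read 204.2 in matUPD18 and 121.7 in patUPD18, 1.68-fold higher in matUPD18. It passed the filter through matUPD18 alone, and its log2 ratio of 0.75 became 0.14 with the floor at the 60th percentile.

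**Figure D2:**
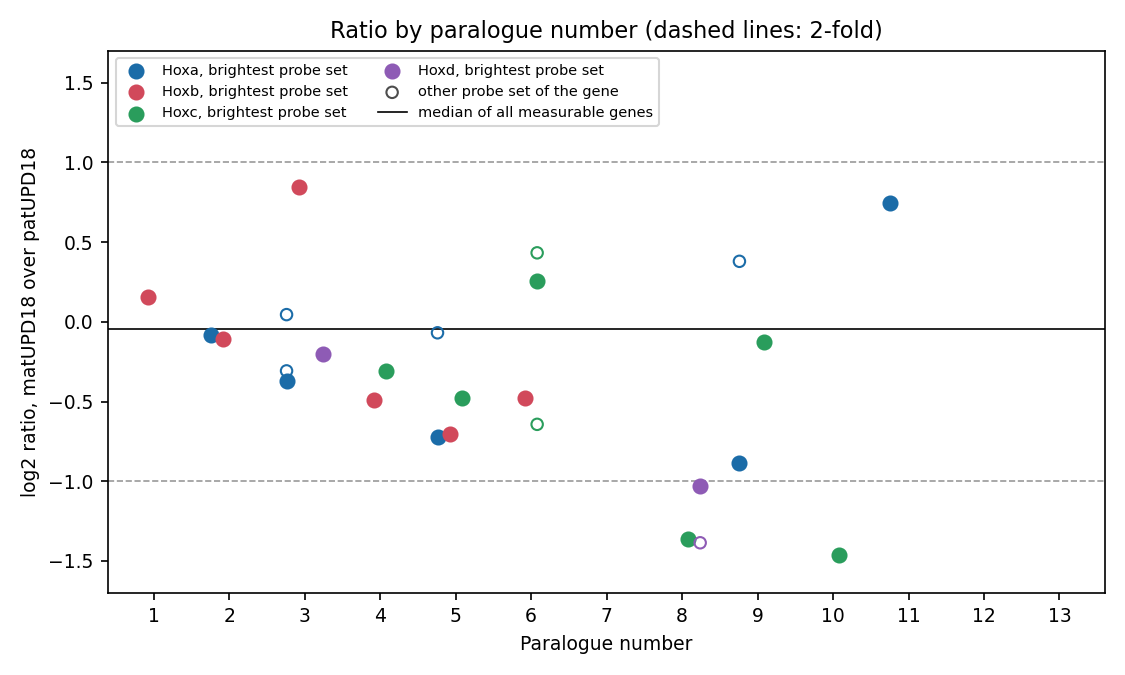
Log2 ratio of matUPD18 over patUPD18 (vertical axis) against paralogue number for the 26 measurable Hox probe sets, coloured by cluster, filled for the brightest probe set of a gene and open for its others; the solid line is the median of all measurable genes (-0.04) and dashed lines mark 2-fold, all under the deposited scaling. Scaling to the hybridisation controls moves every point up by 0.56, which puts the median of the 19 genes at 0.19, above 0. As drawn, all points of groups 2, 4, 5, 8 and 10 lie below the solid line. Those of groups 1 (Hoxb1) and 11 (Hoxa11) lie above it, and groups 3, 6 and 9 have points on both sides, with Hoxb3 above.

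Along the axis, the ratio did not change evenly with paralogue number. Across the 19 genes, read by their brightest probe sets, the ratio and the paralogue number had a Pearson's r of -0.33 and a Spearman's rho of -0.43, given as a description because the genes share the same pair of RNAs. The median fell from -0.16 in numbers 1 to 4 to -0.70 in numbers 5 to 8 and was -0.51 in numbers 9 to 13. With the median over the measurable probe sets of each gene, the last 2 values were -0.48 and -0.19. By cluster, the medians were -0.37 in Hoxa (5 genes), -0.29 in Hoxb (6), -0.39 in Hoxc (6) and -0.62 in Hoxd (2) under the deposited scaling, and 0.19, 0.27, 0.17 and -0.053 after scaling to the controls. Of these, the Hoxb median turned to 0.021 with the filter at the 75th percentile, which left 4 genes. Where a gene had more than 1 measurable probe set, 2 genes (Hoxa5 and Hoxd8) had the same direction in all of them and 3 (Hoxa3, Hoxa9 and Hoxc6) did not. The pooled standard deviation of the log2 ratio between probe sets of a gene was 0.51 over these 12 Hox probe sets and 0.44 over 10206 probe sets of all genes.

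**Figure D3:**
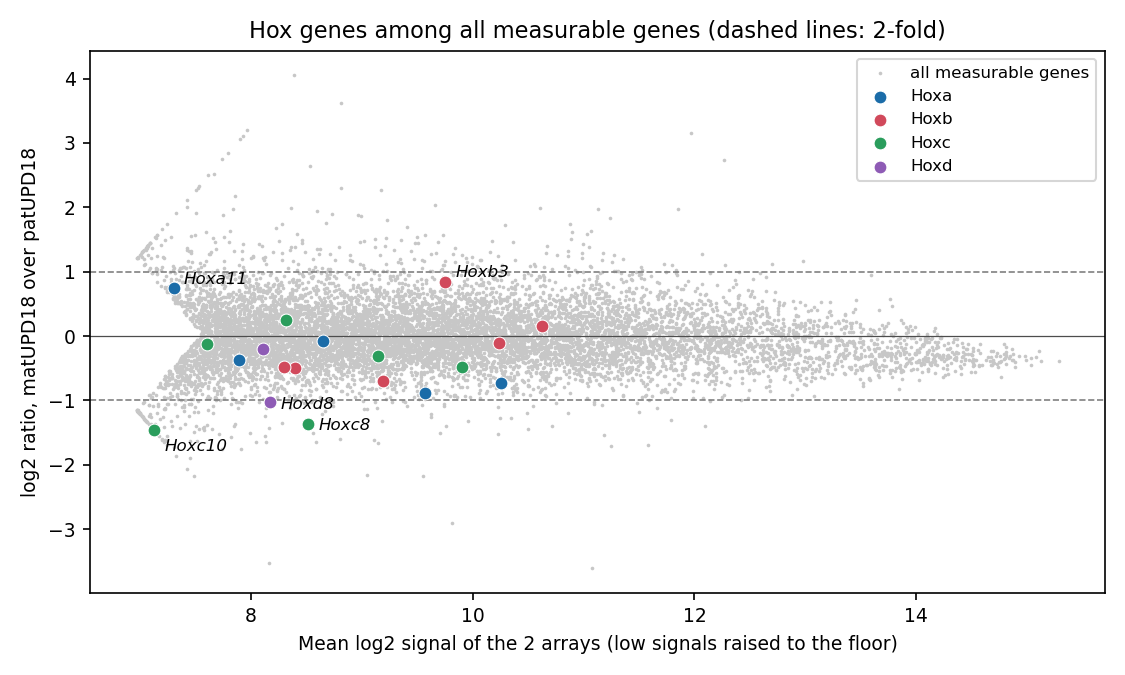
Log2 ratio of matUPD18 over patUPD18 against the mean log2 signal for 10484 measurable genes (grey) and the 19 Hox genes (coloured by cluster), with dashed lines at 2-fold and the deposited scaling. Hoxc8, Hoxd8 and Hoxc10 lie below the lower line among dim to middling genes, and no Hox gene lies above the upper line. Scaling to the hybridisation controls adds 0.56 to all points, after which 2 Hox genes pass the upper line and none the lower. Of all 10484 measurable genes, 1624 then pass the upper line and 29 the lower.

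The other 22 probe sets were below the measurable limit, with signals from 2.14 to 158.2 in matUPD18 and from 2.17 to 145.0 in patUPD18. Of these, 14 lay under the floor on both arrays, where signals have no order. All probe sets of Hoxa4, Hoxa7, Hoxa13, Hoxb13, Hoxc13, Hoxd10, Hoxd11, Hoxd12 and Hoxd13 lay there. These include the group 13 genes of all 4 clusters. The remaining genes without a measurable probe set were Hoxb7 (118.2 and 106.2), Hoxb9 (158.2 and 145.0), Hoxd1 (135.9 and 137.2), Hoxd9 (88.0 and 97.6) and Hoxa10. Both Hoxa10 probe sets read 95.0 and 95.1 in patUPD18 and lay under the floor in matUPD18. A dim probe set can lie far from the 3' end that the amplification favours, so low signal here does not show that a gene is silent.

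Other genes inside the clusters and at their borders are read from the same chromosome regions. RefSeq lists 31 further genes inside the 4 clusters, mostly long non-coding RNAs, with 6 microRNA genes. Of these, 5 had a probe set and 2 were measurable. Hoxb5os, an RNA antisense to the Hoxb5 region, read 3805 in matUPD18 and 4668 in patUPD18, 1.23-fold higher in patUPD18. Gm15050, in the Hoxa cluster, read 372.2 and 320.5, 1.16-fold higher in matUPD18. Hoxd3os1 (188.4 and 159.1 by its brighter probe set), Hoxa11os and Gm38462 were below the limit.

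The 3 measurable genes on each side of each cluster made 24 flanking genes, and they had a median log2 ratio of -0.02, with 13 higher in patUPD18 and 11 higher in matUPD18. Within 1.5-fold were 20 of them, as were 81.3% of all measurable genes, and 53.9% of those genes were higher in patUPD18. Lnpk, beside Hoxd, was the exception past 2-fold, with 78.3 and 241.0, at least 2.86-fold higher in patUPD18, and it passed the filter through patUPD18 alone. Another, unmeasurable probe set of Lnpk read 174.7 and 97.7 and went the other way. Cbx5, a heterochromatin protein gene beside Hoxc, read 2494 in matUPD18 and 3976 in patUPD18 by its brightest probe set, 1.59-fold higher in patUPD18. Its 3 other measurable probe sets had log2 ratios of -0.33, 0.05 and 0.27, so no direction can be given for Cbx5. By their single measurable probe sets, Atp5g2 on the other side of Hoxc read 1233 and 781.7 and Snx10 beside Hoxa read 1610 and 835.5, both higher in matUPD18.

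The measurable TALE cofactors lay within 2-fold under the deposited scaling, as did 10014 of all 10484 measurable genes. Of 9 genes 8 had a probe set and 5 were measurable, with a median of -0.16 under the deposited scaling and 0.41 after scaling to the controls. Meis1 read 5455 in matUPD18 and 6076 in patUPD18, and Meis2 11422 and 11632 by its brightest probe set. Pknox2 had the largest ratio toward patUPD18, with 911.8 and 1218. Pbx3 had the largest toward matUPD18, with 4318 and 2849, though its other probe set read 412.6 and 415.1.

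Upstream regulators of Hox genes showed no common direction. Of 19 genes 16 had a probe set and 9 were measurable, with a median of 0.16. Of the 9, 4 were higher in patUPD18 and 5 in matUPD18, against 53.9% and 46.1% of all measurable genes. That median was -0.10 with the median over probe sets and -0.297 without probe sets that may match several transcripts, so it has no stable sign. Past 2-fold, with patUPD18 higher, were 2 of the 9, against 1.78% of all measurable genes. Cdx2, a homeobox factor that activates trunk Hox genes, read 217.9 in matUPD18 and 681.2 in patUPD18. Cyp26b1, an enzyme that breaks down retinoic acid, read 121.9 and 330.6. Of these, Cyp26b1 passed the filter through patUPD18 alone. Toward matUPD18 the largest ratio was that of Egr2 (951.5 and 493.0). Aldh1a2, which makes retinoic acid, read 3474 and 2139, 1.62-fold higher in matUPD18. The retinoic acid receptor genes Rarb (259.2 and 297.5) and Rarg (297.6 and 247.4) differed little. Cdx1 lay under the floor on both arrays, and Cdx4 read 143.5 and 100.1, below the limit. Cdx2 was the single measurable gene among Cdx, ParaHox (Gsx1, Gsx2 and Pdx1) and Evx genes.

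Lists of genes for the regions of the embryo where Hox genes are read were set beside them, since fewer cells of a region and less RNA per cell cannot be told apart in whole embryos. In the tail bud and presomitic mesoderm list, 13 of 24 genes were measurable, with a median of -0.30 under the deposited scaling, 0.26 after scaling to the controls and 0.10 over the 7 genes above the 75th percentile. Of the 13, 4 were at least 2-fold higher in patUPD18, as were 1.78% of all measurable genes: Cdx2, the growth factor gene Fgf4 (62.0 and 256.1, at least 3.04-fold), the segmentation clock gene Hes7 (115.1 and 310.5) and the presomitic factor gene Msgn1 (66.8 and 207.5). Fgf4, Hes7 and Msgn1 were over the measurable limit on the patUPD18 array alone, so the filter itself selected them toward patUPD18. Among the 10 genes over it on both arrays the median was 0.015, with 5 higher on each array. Of all genes over the limit on both arrays, 53.5% were higher in patUPD18. Cdx2 was the 1 gene of the 10 past 2-fold with patUPD18 higher, as 0.703% of all genes over the limit on both arrays were. In the other direction was Sp8, a tail bud and limb bud factor gene, with 529.1 and 255.6, where 1.67% of such genes were past 2-fold. The somite list had a median of -0.02 over 8 genes, turning to 0.55 after scaling to the controls. Under the deposited scaling all 8 somite genes were within 2-fold, as were 10014 of all 10484 measurable genes. There Meox1 (1008 and 1507) lay furthest toward patUPD18 and Pax3 (1588 and 1042) furthest toward matUPD18.

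Under the deposited scaling the medians of the anterior lists lay above 0. All 7 measurable hindbrain genes read higher in matUPD18, against 46.1% of all measurable genes, with a median of 0.31. Each was within 2-fold, as were 10014 of all 10484 measurable genes. Of the 7, Gbx2 passed the filter through matUPD18 alone. They were led by Egr2, which marks the third and the fifth rhombomere (951.5 and 493.0), and the least different was Irx3 (2296 and 2075). In the forebrain and midbrain list 8 of 9 read higher in matUPD18, against 46.1% of all measurable genes, with a median of 0.27. After scaling to the controls these medians were 0.87 and 0.83, and the tail bud, somite and Hox medians were then above 0 as well. Otx2, the head organising factor gene, read 1038 and 703.0, while Six6 read 242.1 and 244.2. The lateral plate and limb field list had a median of 0.09 over 9 genes, from Prrx1 (569.7 and 965.5) to Gata6 (489.7 and 251.8). Of the markers fixed for a whole embryo at this stage, 10 were measurable, with a median of 0.14. All 10 were within 2-fold, as were 10014 of all 10484 measurable genes. Kdr lay furthest toward matUPD18 (1426 and 910.0) and Meox1 furthest toward patUPD18 (1008 and 1507). Sox2 of the neural plate (5833 and 5337) and Myl7 of the heart (1710 and 1664) differed little. Nkx2-5 and Pecam1 were not measurable.

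The arrays also differed in genes of extra-embryonic endoderm and of blood. In the yolk sac and visceral endoderm list, 13 of the 19 measurable members favoured matUPD18 by 2-fold or more (2.7% of all measurable genes), with a median of 2.52 and summed signals of 41141 in matUPD18 and 8950 in patUPD18. Of these 13, 10 were over the measurable limit on the matUPD18 array alone, which fixed the direction of their gap but not its size. Gata4 passed in the same way and was 1.37-fold higher in matUPD18 (239.6 and 174.6). Among the 8 members over the limit on both arrays, 3 favoured matUPD18 by 2-fold or more (1.67% of all genes over the limit on both arrays) and the median was 0.71. In the primitive red cell list, 7 of the 12 measurable members favoured patUPD18 by that much (1.78% of all measurable genes), with a median of -1.28 and summed signals of 46852 and 72337. Among the 9 members over the limit on both arrays, 5 did so (0.703% of all such genes) and the median was -1.21. The part of these tissues, or of the tail bud genes, in the Hox ratios was not tested.

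**Figure D4:**
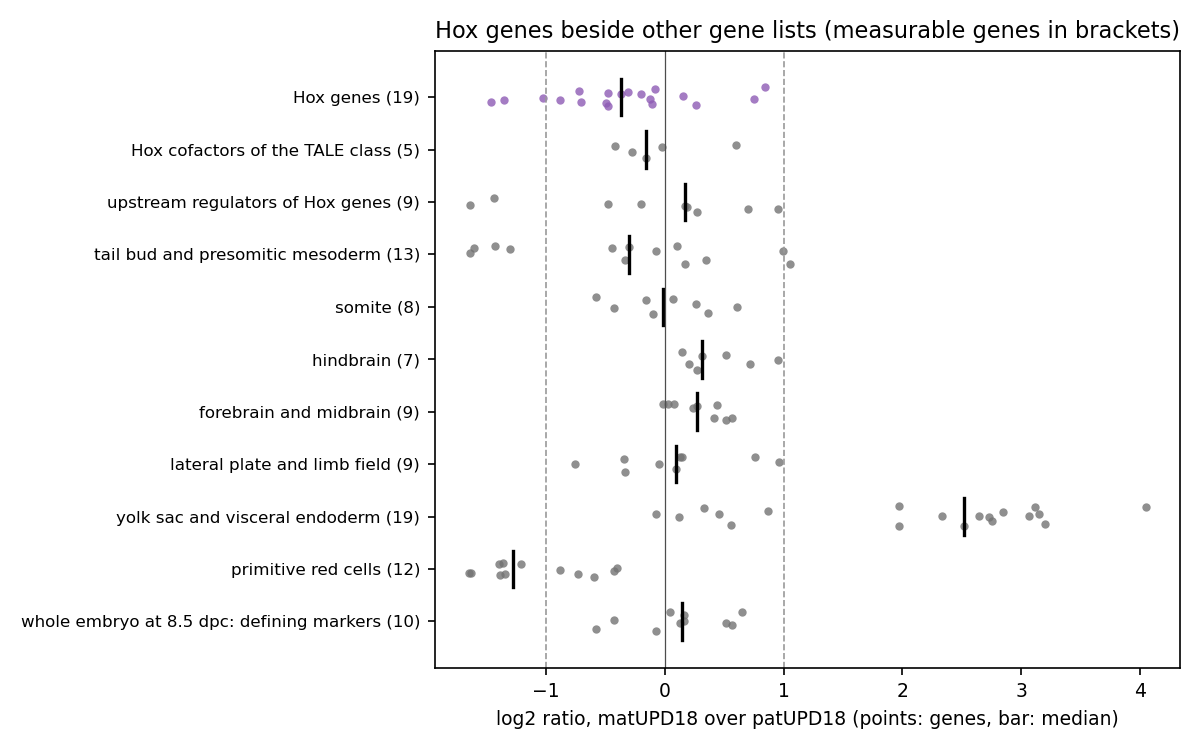
Log2 ratio of matUPD18 over patUPD18 for the measurable genes (points) of the Hox clusters and of 10 other lists, with each list's median as a bar, dashed lines at 2-fold and the deposited scaling. The Hox (-0.37), tail bud (-0.30) and red cell (-1.28) medians lie below 0 and the hindbrain (0.31), forebrain (0.27) and yolk sac (2.52) medians above it; scaling to the hybridisation controls adds 0.56 to all points and brings the Hox, tail bud, cofactor and somite medians above 0.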

How the data were processed

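The values deposited by the authors are intensities on a linear scale, for which the submitters' processing notes name MAS5 and GCOS without versions or settings. RNA was amplified with the RiboAmp kit, which copies from the 3' end, and carried a biotin label, per the labels' protocols. Genes other than Hox were named through the Entrez identifier of the platform annotation (34754 of 34958 probe sets with 1 symbol matched RefSeq). Log2 ratios, the 40th percentile floor, the 60th percentile limit and the 2-fold threshold were applied as described in the report, in Python 3.11.15 with numpy 2.4.6, pandas 2.3.3, statsmodels 0.14.6 (loess), scipy 1.17.1 and matplotlib 3.10.9. The calculation was tested on simulated data. Alternatives were median centring, quantile and loess scaling, other floors, filters, fold thresholds and probe set rules; scaling to the hybridisation controls and keeping only genes over the limit on both arrays were added after seeing the data. Genes were named if at least 1.5-fold apart, if several probe sets measured them or if bright, so that all 19 measurable Hox genes appear. In other lists, genes past 2-fold or furthest in each direction were named. The exceptions are the yolk sac and red cell lists, whose genes past 2-fold were given as counts, medians and summed signals without names. Gbx2, Egr2, Irx3, Otx2, Six6, Meis1, Meis2, Aldh1a2, Rarb, Rarg, Cdx1, Cdx4, Sox2, Myl7, Kdr, Gata4, Cbx5, Atp5g2 and Snx10 were named in part after their values were seen. The members and lists were chosen with earlier results of these data known.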

Additional observations from a re-analysis of the deposited data

How the results depend on the processing

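A value was taken to have moved when it changed by 0.44 or more on the log2 scale (the spread between probe sets of a gene, a limit chosen after seeing the data) and a count when it changed by over 1.5 times. The Hox median ranged from -0.48 to -0.08 over the 12 planned settings and kept its sign in all of them, the -0.08 being that without a filter on dim probe sets. Scaling to the hybridisation controls turned it to 0.19, with 0.19, 0.27 and 0.17 for Hoxa, Hoxb and Hoxc, -0.053 for Hoxd, and 0.41, -0.14 and 0.058 for numbers 1 to 4, 5 to 8 and 9 to 13. It left 0 Hox genes past 2-fold in patUPD18, 2 past it in matUPD18 and 6 higher in patUPD18, since it adds the same amount to every ratio. The same scaling put 29 of all 10484 measurable genes past 2-fold in patUPD18, 1624 past it in matUPD18 and 9.49% higher in patUPD18. It also gave medians of 0.41 (cofactors), 0.73 (upstream regulators), 0.26 (tail bud), 0.55 (somite), 0.87 (hindbrain), 0.83 (forebrain and midbrain), 0.66 (lateral plate), -1.08 (Cdx2 alone among ParaHox and Evx genes), 3.08 (yolk sac), -0.72 (red cells) and 0.71 (whole embryo markers). Fold thresholds of 1.5 and 3 gave 6 and 0 Hox genes higher in patUPD18, and 1.5-fold gave 2 higher in matUPD18. The filter at the 75th percentile left 11 Hox genes, 9 of them higher in patUPD18, as were 54.4% of the 7376 genes it left. This filter also turned the Hoxb median to 0.021 and the tail bud median to 0.10. Without a filter, where 0 stands for signals under both floors, the medians were -0.0071 for Hoxd, 0 for numbers 9 to 13 and 0.020 for ParaHox and Evx genes, and the last was 0.36 with the filter at the 50th percentile. The upstream regulator median was -0.10 as a median over probe sets and -0.297 without probe sets named _x_at, _s_at or _a_at. Keeping only genes over the limit on both arrays, a setting chosen after seeing the data, gave a Hox median of -0.42 and turned the tail bud median to 0.015, and the yolk sac median fell to 0.71. A floor raised to the 60th percentile gave a yolk sac median of 1.59, and leaving out those probe sets gave 1.97. Hoxc6 read -0.64 and Hoxa5 -0.07 without those probe sets, Hoxa9 -0.25 as a median over probe sets, and Hoxa11 0.14 under the raised floor. The Hoxc10 ratio ran from -3.95 with no floor to -0.29 under the raised floor. No replicate could be left out and no paired analysis was possible because each genotype had 1 array.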
